A study of Mus musculus with 36 samples.

Results

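The replication-dependent histone genes of the mouse were followed in soleus muscle through disuse and the return to weight bearing. Every gene whose symbol begins with Hist1h, Hist2h, Hist3h or Hist4h was taken, which gave 62 of the 21156 genes in the table: 6 genes of linker histone H1, 17 of H2A, 16 of H2B, 10 of H3 and 13 of H4. By name, 50 of them belong to cluster 1 on chromosome 13, 8 to cluster 2 on chromosome 3 (chr3:96219916-96270192, mm10), 3 to cluster 3 on chromosome 11 (chr11:58948911-58955192) and 1 to cluster 4 on chromosome 6 (chr6:136803993-136804431). The 62 include Hist1h2al (H2A) and Hist3h2bb-ps (H2B), whose current symbols, H2af-ps2 and H2bu1-ps, are those of pseudogenes. RNA came from the soleus, a slow postural calf muscle, of male C57BL/6J mice, each of the 36 libraries coming from a different mouse. Old mice were 22 to 24 months of age and young mice 6 months. In the reloading groups (4 old and 4 young mice) 10 days of hind limb unloading were followed by 3 days of normal weight bearing, in the unloading groups (6 old and 4 young) the 10 days of unloading came last, and control mice (9 old and 9 young) were kept under control conditions for 10 days. No allele or agent is named for any group.

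Replication-dependent histone genes encode the bulk histones that package newly copied DNA. They are transcribed mainly in S phase, mostly lack introns, and their mRNAs end in a conserved stem-loop, bound by the protein SLBP, in place of a poly(A) tail. Many lie as divergent H2A and H2B neighbours that share the stretch between their start sites. H2A, H2B, H3 and H4 form the nucleosome core, and H1 binds the DNA between nucleosomes. Some of these genes also give longer, polyadenylated transcripts in cells that have left the cell cycle. Adult muscle fibres do not divide, while the interstitial and satellite cells among them can. The libraries were made from total RNA after removal of ribosomal RNA, so transcripts without a poly(A) tail were kept.

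Between 32 and 37.9 M reads per library fell on genes, and the histone genes took between 0.0135% and 0.0322%. Of the 62 histone genes, 47 had enough reads to be tested. The labelled tissue carried its markers: the 8 soleus myofibre genes, among them Myh7 and Tnnt1, summed to between 270000 and 349500 counts per 1 M reads (CPM) in all libraries. Levels are CPM on TMM-scaled library totals, changes are log2 fold changes ± SE, and calls rest on an adjusted p under 0.05 (quasi-likelihood test of edgeR, adjusted by Benjamini-Hochberg over 15031 genes). Alb, the serum albumin gene of liver, was above 20 CPM in 6 libraries and reached 1740 and 154 CPM in old reloading replicates 2 and 4, so counts without those 6 libraries are given where they matter. Nothing in the labels says that mice were litter mates or shared a batch. In bulk muscle, fewer cells of a type and less RNA per cell cannot be told apart. Reads were 50 bases long and near-identical histone copies can share them, so the level of a single copy is less certain than that of its class.

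The stem-loop that marks these mRNAs was looked for in the GENCODE vM21 transcripts as 5 spellings of the 16-base histone stem-loop on the transcribed strand. It was present in a transcript of 40 of the 62 genes, against 8 of 58725 protein-coding transcripts of other genes (0.014%). The 8 sequences here, chosen to compare the stem and loop across H1, H2A, H2B, H3 and H4 genes, are written as DNA, with the stem-loop in capitals and 5 bases on each side in lower case.
Hist1h1c: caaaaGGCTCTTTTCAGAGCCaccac
Hist1h2be: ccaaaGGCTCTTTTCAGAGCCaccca
Hist1h2bk: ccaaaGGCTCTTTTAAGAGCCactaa
Hist2h2ac: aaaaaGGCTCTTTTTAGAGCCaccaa
Hist1h3b: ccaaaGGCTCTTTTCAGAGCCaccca
Hist1h3c: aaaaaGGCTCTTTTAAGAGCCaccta
Hist1h4c: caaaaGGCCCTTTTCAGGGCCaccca
Hist1h4b: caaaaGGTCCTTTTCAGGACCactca
The H1, H2A, H2B and H3 copies among these differed only in the flanks and in the variable base of the loop, whereas the 2 H4 copies carried other stems. In the longer annotated transcripts of Hist1h2be a further 1861 bases follow the stem-loop, and in those of Hist1h1c and Hist1h4c 840 and 454 bases follow it. No match lay in the transcript models of Hist2h2be or Hist1h2bc, or in those of Hist1h1a and Hist1h1b, whose transcripts in that annotation are 741 and 743 bases long. A missing match says only that these letters are absent from that model.

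RefSeq (GRCm38.p6) gave 56 promoters for 55 of the genes, each of 250 bases before and 50 bases after a start site. Among the motifs searched on both strands, CCAAT (the CCAAT box) was in 47 of the 56 promoters (83.93%) and in 37.41% of all 32851 promoters of the table. All 44 promoters of H1, H2A, H2B and H3 genes held it, as did 3 of 12 H4 promoters. TATAAA was in 34 (60.71%, against 13.62% of all promoters) and the octamer ATTTGCAT in 13 (23.21%, against 1.74%), 7 of them of H2A and 6 of H2B genes. AAACACA was in 5 of the 6 H1 promoters and 14.29% of all 56, against 7.18% of all promoters. TTTCGCGC was in 9 (16.07%, against 0.32%), and TTTGGCGC in 0 (against 0.51%). The windows of divergent H2A and H2B neighbours overlap, so a single site can count in both promoters. The TTTCGCGC of Hist1h2ah and Hist1h2bk is such a site, so the promoter counts of all these motifs are not independent. The 6 stretches here are the 250 bases before the start site of genes that moved strongly (Hist1h1b, Hist1h2bk, Hist1h3b), moderately (Hist2h2ac) or hardly at all (Hist1h1c, Hist1h4h) with reloading, with the searched motifs in capitals.
Hist1h1b (chr13:21780626-21780875, minus strand): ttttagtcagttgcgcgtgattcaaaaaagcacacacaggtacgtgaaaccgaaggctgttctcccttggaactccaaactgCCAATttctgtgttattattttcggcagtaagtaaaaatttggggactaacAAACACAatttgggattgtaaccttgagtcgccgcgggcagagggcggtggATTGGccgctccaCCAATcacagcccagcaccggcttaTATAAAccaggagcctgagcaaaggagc
Hist1h1c (chr13:23738557-23738806, plus strand): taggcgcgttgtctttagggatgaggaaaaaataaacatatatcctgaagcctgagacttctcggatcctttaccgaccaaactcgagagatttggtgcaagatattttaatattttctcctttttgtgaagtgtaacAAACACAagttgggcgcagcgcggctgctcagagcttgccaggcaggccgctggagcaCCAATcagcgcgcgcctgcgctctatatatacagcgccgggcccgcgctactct
Hist1h2bk (chr13:22035571-22035820, plus strand): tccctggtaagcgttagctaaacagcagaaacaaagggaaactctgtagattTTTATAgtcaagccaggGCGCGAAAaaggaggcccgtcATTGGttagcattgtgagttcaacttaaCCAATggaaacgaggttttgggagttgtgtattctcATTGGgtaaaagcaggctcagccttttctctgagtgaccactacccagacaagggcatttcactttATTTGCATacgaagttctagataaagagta
Hist2h2ac (chr3:96220881-96221130, minus strand): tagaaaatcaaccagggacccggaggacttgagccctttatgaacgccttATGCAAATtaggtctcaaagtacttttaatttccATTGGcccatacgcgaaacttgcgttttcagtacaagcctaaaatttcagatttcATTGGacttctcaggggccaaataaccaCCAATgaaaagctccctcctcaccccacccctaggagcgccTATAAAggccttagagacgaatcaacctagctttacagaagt
Hist1h3b (chr13:23752095-23752344, plus strand): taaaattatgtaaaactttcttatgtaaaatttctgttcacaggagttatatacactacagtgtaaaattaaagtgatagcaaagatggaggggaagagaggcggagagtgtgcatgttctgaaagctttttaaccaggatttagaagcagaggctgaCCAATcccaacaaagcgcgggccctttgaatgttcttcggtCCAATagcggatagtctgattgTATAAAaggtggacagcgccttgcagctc
Hist1h4h (chr13:23530794-23531043, plus strand): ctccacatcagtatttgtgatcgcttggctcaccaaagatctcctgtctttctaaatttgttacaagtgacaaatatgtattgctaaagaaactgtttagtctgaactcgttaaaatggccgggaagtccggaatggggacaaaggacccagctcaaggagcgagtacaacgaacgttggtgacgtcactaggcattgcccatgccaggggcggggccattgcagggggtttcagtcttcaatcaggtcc
Hist1h3b, which had the largest fitted rise in young mice, held TATAAA 29 bases before the start and Hist1h1b 28 bases before it, and Hist2h2ac held TATAAA and 3 CCAAT matches too. The stretch of Hist1h2bk reaches into its divergent neighbour Hist1h2ah and that of Hist2h2ac into Hist2h2be. Hist1h4h held none of the motifs. A match is a description of the letters and not a binding site.

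Compared per length, by the authors' RPKM (reads per kilobase of transcript and 1 M reads), a few genes carried most of the histone signal. Hist1h1c, a linker histone found in most somatic cells, averaged 49.1 RPKM over the 36 libraries and made up 25.85% of the summed RPKM of the 62 genes. Hist1h2bc followed with 27.1 RPKM, then the H4 genes Hist1h4c (18.4), Hist1h4d (16.6) and Hist1h4h (15.7), Hist1h1e (14.7), Hist2h2bb (5.86), Hist2h4 (5.23), Hist4h4 (4.54) and Hist3h2a (3.11). These 10 genes together took 84.38%. H3 had no gene among them: its highest, Hist1h3f, averaged 2.81 RPKM. The order of Hist1h1c over Hist1h2bc held in every group mean (54.0 ± 6.78 and 34.7 ± 3.64 RPKM in old reloaded muscle, SD, n = 4), whereas the order of Hist1h4d and Hist1h4h turned between groups. Hist1h4d averaged 25.7 ± 3.57 and Hist1h4h 17.3 ± 3.24 RPKM in young reloaded muscle, and 14.4 ± 2.11 and 17.2 ± 1.33 RPKM in young unloaded muscle (SD, n = 4 each).

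**Figure D1:**
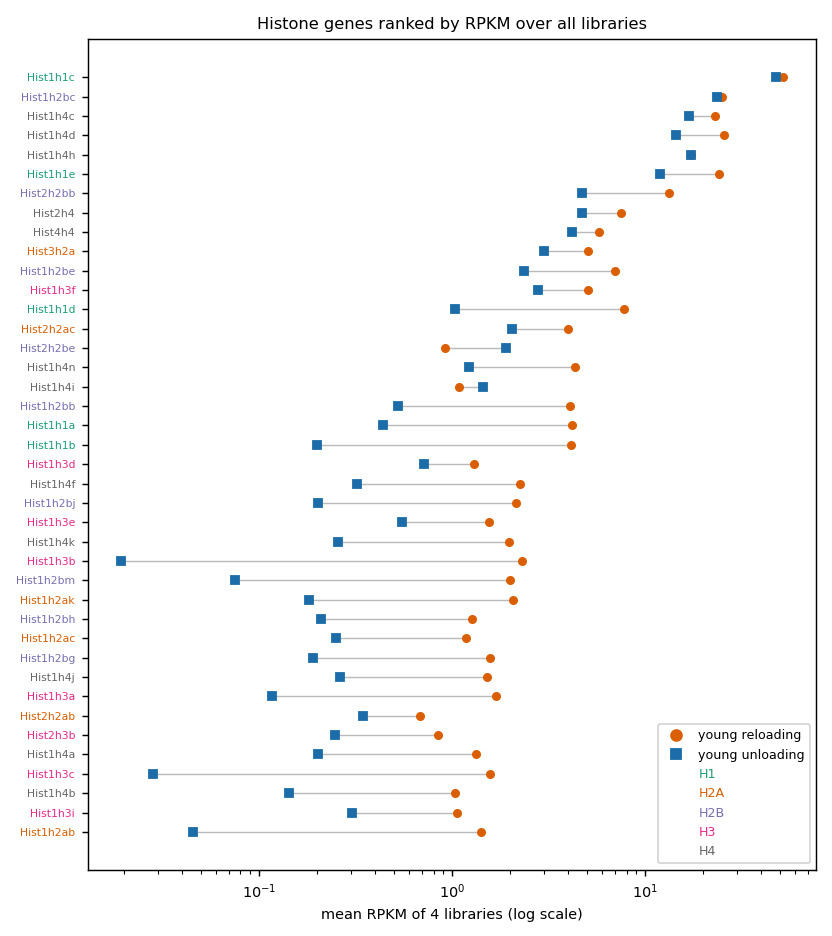
Mean RPKM (log scale) of the 40 histone genes with the highest average over all libraries, in young reloaded muscle (circles, n = 4) and young unloaded muscle (squares, n = 4), with gene names coloured by histone class. The 2 marks lie close together for abundant genes such as Hist1h1c and Hist1h4h and far apart for low ones such as Hist1h3b.

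Reloading for 3 days raised most of these genes at both ages. Of the 47 tested, 37 rose and 2 fell in old reloaded against old unloaded muscle, where 27.8% of all genes rose and 23.5% fell (51.3% in either direction). In young mice 39 rose and 1 fell, where 26.4% of all genes rose and 21.5% fell (47.9% in either direction). The median log2 fold change of the 47 was 1.34 in old and 2.46 in young mice, against 0.03 and 0.06 over all genes tested (2.40 in young mice with Hist1h4m, at 0 reads after rounding in unloaded muscle, set at its bound). At both ages 35 genes rose, 2 rose in old mice only and 4 in young mice only, which was not tested as a difference. By class, 4 of 5 H1, 6 of 8 H2A, 9 of 11 H2B, 7 of 10 H3 and 11 of 13 H4 genes rose in old mice, and 4, 7, 8, 10 and 10 did in young mice. The H4 genes that rose in old mice include Hist1h4m, with a fitted change of 6.00. It rests on 32 reads in old reloaded and 0 in old unloaded muscle, and on how reads shared with Hist1h4n were assigned. Rises of at least 2-fold were found for 28 genes in old and 30 in young mice, and of at least 4-fold for 12 and 25. The share of all genes past these fold cuts was not counted, and the counts of the 2 ages were not tested against each other. Without the 6 libraries with Alb above 20 CPM, 41 of 49 tested genes rose at each age and 1 fell. Fitted on only the 2 old groups, where 30 of the genes had enough reads to be tested, 22 rose and 2 fell in old mice. For these alternative fits the share of all genes called is not given. The read filter behind the 47 used all 6 groups, so low copies could pass through their reloaded libraries alone. That favours rises in these counts and medians.

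The summed level of all 62 genes was 216.1 ± 23.0 CPM in old reloaded muscle (SD, n = 4) and 174.8 ± 9.70 CPM in old unloaded muscle (n = 6), and 240.9 ± 42.5 CPM in young reloaded and 166.3 ± 7.59 CPM in young unloaded muscle (n = 4 each). Outside the 10 most abundant genes, the other 52 summed to 51.8, 33.4, 53.8 and 33.4 CPM in the old reloaded libraries, against 26.1 to 34.4 CPM (median 31.8) in old unloaded ones. In young mice they summed to 66.7, 47.1, 106.5 and 63.1 CPM after reloading and 27.5, 28.4, 28.3 and 26.3 CPM after unloading. Young reloading replicate 3 was the highest and replicate 2 the lowest of the young reloaded libraries, while the unloaded ones lay close together. The old groups overlapped, since replicates 2 and 4 of old reloading lay within the range of old unloading.

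**Figure D2:**
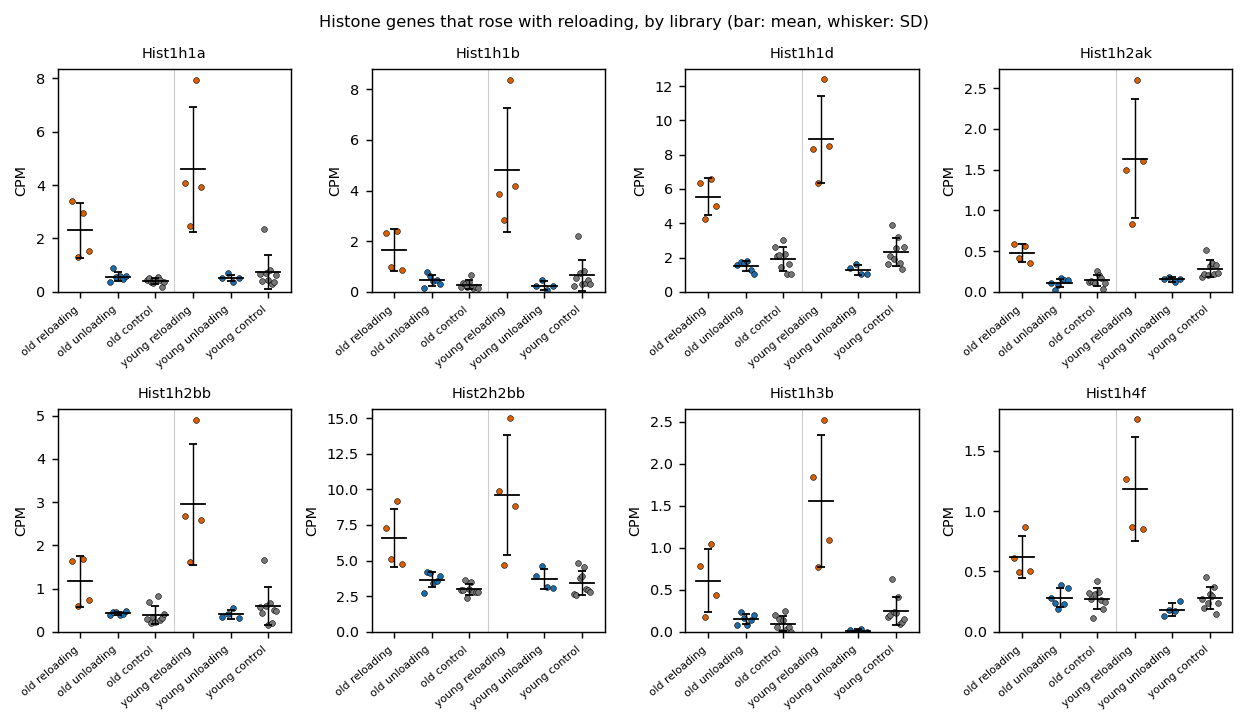
CPM of 8 histone genes in each library of the 6 groups, with the mean (bar) and SD (whisker). In each panel the mean of the reloaded libraries is the highest of the 3 conditions at both ages, and young reloading replicate 3 is the highest library of all.

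Among the linker histones, which bind between nucleosomes, Hist1h1d was the clearest riser. It had 6.33, 4.27, 6.58 and 5.03 CPM in old reloaded libraries and 1.06 to 1.77 CPM (median 1.63) in old unloaded ones, a change of 1.88 ± 0.26 (adjusted p = 2.91e-07). Young reloaded libraries had 8.35, 6.33, 12.4 and 8.51 CPM and young unloaded ones 1.42, 1.61, 1.06 and 1.01 CPM (2.80 ± 0.30, adjusted p = 2.98e-09). The groups did not overlap at either age. Hist1h1b had 2.31, 0.965, 2.39 and 0.882 CPM in old reloaded muscle against 0.141 to 0.764 CPM in old unloaded muscle (1.83 ± 0.49), and 3.86, 2.84, 8.38 and 4.19 CPM in young reloaded against 0.213, 0.478, 0.0860 and 0.222 CPM in young unloaded muscle (4.26 ± 0.60, adjusted p = 4.35e-07). Hist1h1a changed by 1.99 ± 0.39 in old and 3.14 ± 0.45 in young mice. Hist1h1e, an abundant linker histone, rose less, by 0.72 ± 0.14 and 0.92 ± 0.16. Hist1h1c, the most abundant of all, had 57.4, 63.0, 67.8 and 54.7 CPM in old reloaded and 60.2 to 70.0 CPM in old unloaded muscle, and was not called at either age (-0.08 ± 0.11 and 0.04 ± 0.12).

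H2A, a core histone that pairs with H2B, was measured mainly through low copies. Hist1h2ak had 0.586, 0.409, 0.562 and 0.353 CPM in old reloaded libraries against 0.0263 to 0.166 CPM in old unloaded ones (2.07 ± 0.36, adjusted p = 1.46e-05), and 1.5, 0.834, 2.60 and 1.61 CPM in young reloaded against 0.160, 0.179, 0.115 and 0.159 CPM in young unloaded libraries (3.39 ± 0.37, adjusted p = 3.67e-09). Hist1h2af rose by 2.32 ± 0.43 in old and 3.77 ± 0.49 in young mice, and Hist1h2ab by 2.96 ± 0.61 and 4.73 ± 0.69. The 2 H2A genes with the highest RPKM moved less. Hist2h2ac had 2.90, 1.87, 2.67 and 1.76 CPM in old reloaded and 0.843 to 1.46 CPM in old unloaded muscle, and rose by 0.85 ± 0.21 in old and 0.86 ± 0.23 in young mice. Hist3h2a, of cluster 3, rose in young mice (0.66 ± 0.20, adjusted p = 0.00791) and was not called in old mice (0.19 ± 0.19, adjusted p = 0.417).

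The H2B genes, whose products pair with H2A, split into risers, a faller and genes with mixed transcripts. Hist2h2bb, by RPKM the most abundant H2B gene that rose at both ages, had 7.31, 5.12, 9.16 and 4.76 CPM in old reloaded libraries against 2.73 to 4.19 CPM in old unloaded ones (0.85 ± 0.21, adjusted p = 0.00123), and 9.91, 4.69, 15 and 8.81 CPM in young reloaded against 3.90, 4.60, 3.12 and 3.11 CPM in young unloaded ones (1.38 ± 0.24, adjusted p = 1.26e-05). The young groups did not overlap, though the lowest reloaded library (4.69 CPM) was close to the highest unloaded one (4.60 CPM). Hist1h2bb rose by 1.43 ± 0.42 in old and 2.85 ± 0.47 in young mice, Hist1h2bm by 3.36 ± 0.62 and 4.53 ± 0.75, and Hist1h2bk by 2.95 ± 0.58 and 5.12 ± 0.76. Hist1h2bk rests on few reads in young unloaded muscle (3 in 4 libraries, against 123 after reloading, a ratio of 41.1 with an exact 95% interval of 13.8 to 202). Hist1h2bc, the most abundant H2B gene, rose in old mice (44.3, 38.4, 36.7 and 35.4 CPM after reloading, 26.0 to 32.5 CPM after unloading; 0.42 ± 0.09, adjusted p = 0.000181) and was not called in young mice (-0.04 ± 0.10, adjusted p = 0.8).

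H3 carries most of the well-known histone tail modifications, and all 10 of its genes rose in young mice. Hist1h3b had 0.781, 0.175, 1.04 and 0.441 CPM in old reloaded libraries against 0.0830 to 0.237 CPM in old unloaded ones (1.98 ± 0.53, adjusted p = 0.00226). Its young reloaded libraries had 1.84, 0.772, 2.52 and 1.09 CPM, and its young unloaded ones 0.0267, 0, 0.0287 and 0 CPM (6.43 ± 0.82, adjusted p = 8e-08). That was 218 reads against 2, a ratio of 109.4 with an exact 95% interval of 29.9 to 909, which like the other such intervals and bounds covers counting error only. Hist1h3c had 156 reads in young reloaded and 3 in young unloaded libraries (ratio 52.2, interval 17.5 to 256). Hist1h3a rose by 1.89 ± 0.43 in old and 3.68 ± 0.50 in young mice. Hist1h3f, the H3 gene with the highest RPKM, rose by 0.56 ± 0.16 and 0.76 ± 0.17, with 4.49, 4.65, 5.82 and 4.21 CPM in old reloaded and 2.73 to 3.64 CPM in old unloaded muscle. Hist1h3d was called in young mice (0.77 ± 0.25) and not in old mice (0.31 ± 0.23, adjusted p = 0.265).

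The H4 genes, which all encode the same core histone, included 3 of the 5 genes with the highest RPKM. Hist1h4c had 14.1, 12.3, 12.7 and 12.0 CPM in old reloaded libraries and 7.28 to 9.47 CPM in old unloaded ones (0.63 ± 0.11, adjusted p = 2.5e-05), and it rose by 0.36 ± 0.13 in young mice. Hist1h4d had 12.3, 11.6, 10.4 and 9.91 CPM against 6.91 to 8.27 CPM in the old groups, and 12.9, 13.6, 16.1 and 13.8 CPM in young reloaded against 8.68, 8.75, 9.40 and 6.82 CPM in young unloaded libraries (0.54 ± 0.11 and 0.74 ± 0.12). None of these groups overlapped. Hist1h4f, a low copy, rose by 1.13 ± 0.27 in old and 2.68 ± 0.32 in young mice (adjusted p = 0.000887 and 1.99e-08). Hist1h4h had 9.26, 11.3, 11.4 and 9.35 CPM in old reloaded and 8.25 to 11.8 CPM in old unloaded muscle and was called at neither age (0.09 ± 0.10 and -0.09 ± 0.11). Hist1h4i was not called either (0.23 ± 0.29 and -0.49 ± 0.30). Hist2h4 of cluster 2 and Hist4h4, the only gene of cluster 4, rose by 0.48 ± 0.14 and 0.40 ± 0.13 in old mice and by 0.57 ± 0.15 and 0.37 ± 0.14 in young mice.

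**Figure D3:**
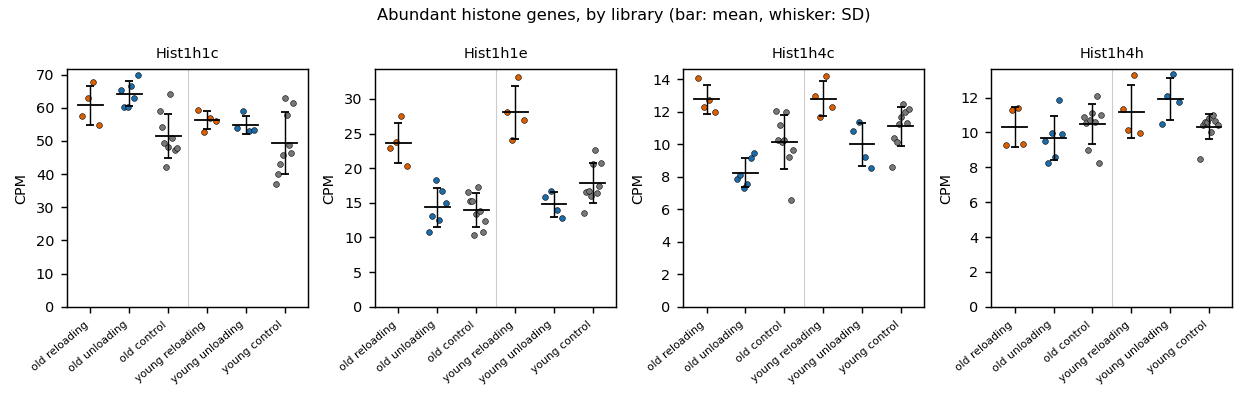
CPM of 4 abundant histone genes in each library, with the mean (bar) and SD (whisker), on axes from 0. Reloaded libraries lie above unloaded ones for Hist1h1e, while those of Hist1h1c and Hist1h4h overlap at both ages.

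Hist2h2be went against the other genes. Its deposited model of 2667 bases (chr3:96221072-96223738, plus strand) is the longest among the genes tested, and its RNA fell with reloading, with 5.77, 4.59, 5.51 and 4.00 CPM in old reloaded libraries against 7.94 to 13.1 CPM (median 11.1) in old unloaded ones (-1.09 ± 0.13, adjusted p = 1.48e-08). Young reloaded libraries had 3.66, 3.86, 3.74 and 3.46 CPM and young unloaded ones 8.97, 6.87, 8.51 and 7.87 CPM (-1.13 ± 0.14, adjusted p = 5.16e-08). The groups did not overlap, and every unloaded library stood above every reloaded one at the same age. With unloading it rose by 0.75 ± 0.10 over control in old and by 0.48 ± 0.11 in young mice (adjusted p = 2.18e-07 and 0.000873). Hist2h2ac, its divergent H2A neighbour 191 bases away, rose with reloading instead.

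Hist1h2be showed a like pattern in its longer forms only. The table splits the gene into a form of 445 bases and longer forms of 2480 and 2506 bases, and the deposited values of the forms are estimated counts. The SE and adjusted p of forms, here and for Hist1h2bc, do not cover how reads common to several forms were assigned. When all transcripts were tested as rows, an analysis added after the data were seen (35.1% of transcripts called for reloading in old and 32.7% in young mice), the longer forms fell with reloading and the short form rose. The longer forms summed to 3.75 ± 0.590 CPM in old reloaded against 7.14 ± 0.786 CPM in old unloaded muscle (-0.94 ± 0.17, adjusted p = 3.21e-05) and to 2.35 ± 0.380 CPM in young reloaded against 5.26 ± 0.608 CPM in young unloaded muscle (-1.17 ± 0.19, adjusted p = 6.19e-06). The short form had 2.01 ± 0.842 CPM in old reloaded against 0.624 ± 0.357 CPM in old unloaded muscle (1.68 ± 0.45, adjusted p = 0.00318), and 4.14 ± 1.87 CPM in young reloaded against 0.724 ± 0.301 CPM in young unloaded muscle (2.5 ± 0.51, adjusted p = 0.000212). With unloading the longer forms rose by 0.73 ± 0.13 in old and 0.82 ± 0.15 in young mice, and the short form was not called (-0.26 ± 0.39 and -0.53 ± 0.44). Summed over forms, Hist1h2be fell with reloading in old mice (-0.43 ± 0.14, adjusted p = 0.0102; -0.38, adjusted p = 0.0549 without the 6 Alb libraries) and was not called in young mice (0.12 ± 0.15).

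In Hist1h2bc the form of 469 bases rose with reloading by 1.57 ± 0.28 in old and 1.44 ± 0.31 in young mice, from a small base. It had 1.06 ± 0.441 CPM in old reloaded and 0.350 ± 0.113 CPM in old unloaded muscle, and 1.58 ± 0.628 CPM in young reloaded and 0.574 ± 0.110 CPM in young unloaded muscle. Its form of 728 bases made up most of the gene, with 37.7 ± 3.5 CPM in old reloaded against 28.6 ± 2.48 CPM in old unloaded muscle (0.39 ± 0.09, adjusted p = 0.000843), and was not called in young mice (-0.10 ± 0.10, adjusted p = 0.482).

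**Figure D4:**
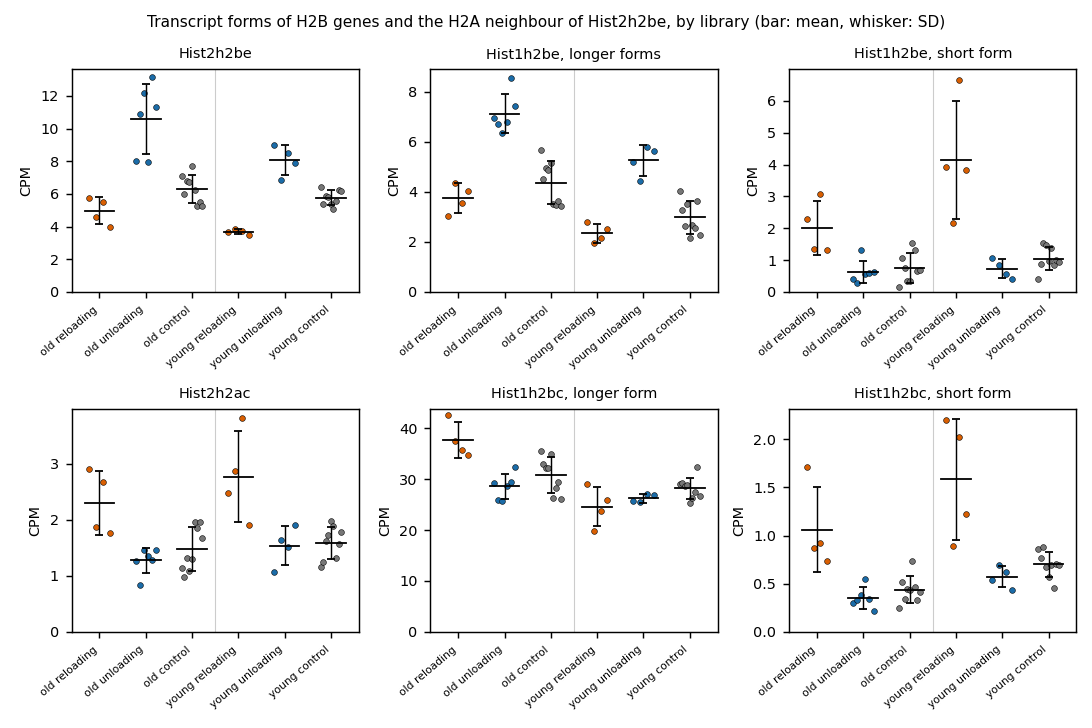
CPM in each library, with the mean (bar) and SD (whisker), of Hist2h2be and its neighbour Hist2h2ac and of the longer and short forms of Hist1h2be and Hist1h2bc. Within each age unloaded libraries are highest for Hist2h2be and the longer forms of Hist1h2be, and the reloaded groups have the highest means for Hist2h2ac and the short forms.

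The genes included 11 divergent pairs with 172 to 607 bases between their models, 10 of them of an H2A and an H2B gene, with the pseudogene Hist3h2bb-ps counted as H2B. Among the pairs with both genes tested, only Hist1h2bl and Hist1h2ai moved by similar amounts. They changed by 2.56 and 2.52 in old mice and by 3.43 and 3.39 in young mice. The other such pairs differed more. Hist1h2ac rose by 1.07 in old and 2.11 in young mice, beside 0.42 and -0.04 for Hist1h2bc, 239 bases away. Hist2h2ac rose by 0.85 and 0.86, beside -1.09 and -1.13 for Hist2h2be. Hist1h2bh rose by 1.41 and 2.46 and the H3 gene Hist1h3f opposite it, 607 bases away, by 0.56 and 0.76. In 7 pairs at least 1 gene had too few reads to be tested, and the differences within pairs were not tested.

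Against control muscle the reloaded level was also higher for most genes. In old mice 36 of 47 were higher and 1 lower in reloaded than in control muscle, where 21.8% of all genes were higher and 21.1% lower; in young mice 40 were higher and 1 lower, where 26.8% and 22.9% of all genes were (49.6% in either direction). Fitted on only the 2 old groups, 22 of 31 tested genes were higher in old mice, and the share of all genes in that fit is not given. The medians were 1.53 in old and 1.79 in young mice, against 0.01 and 0.06 over all genes. Both sets of comparisons share the reloaded libraries, and the limit set by the read filter applies to both. Hist1h1d had 1.02 to 3.00 CPM in old controls (median 2.10) and 1.35 to 3.88 CPM in young controls (median 2.08), and changed by 1.53 ± 0.23 and 1.94 ± 0.22. Hist1h2ak changed by 1.74 ± 0.32 and 2.5 ± 0.26, Hist2h2bb by 1.15 ± 0.20 and 1.48 ± 0.19, and the H3 gene Hist1h3h by 2.21 ± 0.48 and 3.63 ± 0.47. Hist2h2be was the gene that was lower (-0.34 ± 0.12, adjusted p = 0.0217 in old and -0.65 ± 0.12, adjusted p = 4.97e-05 in young mice); in old mice that call was lost without the 6 Alb libraries (-0.16, adjusted p = 0.428), without old reloading replicate 2 (-0.31, adjusted p = 0.0647) or replicate 4 (-0.25, adjusted p = 0.121), and with only the 2 old groups fitted (-0.33, adjusted p = 0.0509).

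Unloading alone changed few of these genes. In old mice 3 of 47 rose and 2 fell in unloaded against control muscle, where 19.5% of all genes rose and 23.2% fell; in young mice 2 rose and 8 fell, where 19.1% and 21.7% did. The median was -0.02 in old and -0.43 in young mice, and 25 and 36 of the 47 values were below 0. Hist2h2be and Hist1h2be rose at both ages (Hist1h2be by 0.60 ± 0.11 in old and 0.57 ± 0.13 in young mice), and Hist1h1c rose in old mice, with 60.2 to 70.0 CPM in unloaded against 42.2 to 64.1 CPM in control muscle (0.32 ± 0.09, adjusted p = 0.0046). Hist1h4c and Hist4h4 fell in old mice (-0.30 ± 0.10 and -0.27 ± 0.11). The call of Hist4h4 (adjusted p = 0.0435) held only when old control replicate 4, 6, 7, 8 or 9 or old unloading replicate 5 was the library left out, with values from -0.24 to -0.33 over all libraries left out.

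The 8 genes that fell with unloading in young mice were Hist1h1b, Hist1h1d, Hist1h2af, Hist1h2ak, Hist1h2bg, Hist1h2bk, Hist1h3b and Hist1h3c. Each of them rose with reloading, as 39 of the 47 did. The same young unloaded libraries are the reference of that comparison, so picking genes that are low there favours a rise. Hist1h3b had 0.0267, 0, 0.0287 and 0 CPM in young unloaded libraries against 0.0919 to 0.623 CPM (median 0.194) in young controls (-3.80 ± 0.91, adjusted p = 0.00102), and Hist1h1d had 1.42, 1.61, 1.06 and 1.01 CPM against 1.35 to 3.88 CPM (-0.86 ± 0.27, adjusted p = 0.01). Both calls held without each library in turn. Hist1h1b (-1.40 ± 0.57), Hist1h2ak (-0.89 ± 0.36), Hist1h2af (-1.33 ± 0.53) and Hist1h2bg (-1 ± 0.40) had adjusted p between 0.045 and 0.0482. With each of 13 libraries left out in turn, the call of Hist1h2af held in 4 cases and that of Hist1h2bg in 5, and both were lost with DESeq2 (adjusted p = 0.111 and 0.0725), with no filter on low counts (0.0586 and 0.064) and without the 6 Alb libraries (0.113 and 0.12). Hist1h2bk fell by 2.51 on the log2 scale, but not without young unloading replicate 2 (-2.15, adjusted p = 0.0595) or 3 (-2.13, adjusted p = 0.066) or the 6 Alb libraries (-2.15, adjusted p = 0.052). Hist1h3c fell by 2.38, but not without young control replicate 3 (-1.99) or young unloading replicate 2, 3 or 4 (-2.53, -2 and -2.04), or without the 6 Alb libraries (-2.53, adjusted p = 0.0628). Of the 10 genes called, 5 were called without young control replicate 3, 6 without young control replicate 6, and 5, 4 and 6 without young unloading replicates 2, 3 and 4. Young control replicate 3 was the highest of the 9 young controls for several of these genes, and its summed level of 10 mitosis genes was 26.1 CPM, against 6.06 to 13.0 CPM in the other 8; the part of that difference in the result was not tested.

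Age was compared within each condition. In controls 1 of 47 genes was higher and 12 were lower in old than in young muscle, where 12.1% of all genes were higher and 11.6% lower, and the median was -0.37. Fitted on only the 2 control groups, 1 of 22 tested genes was higher and 6 were lower, and the share of all genes in that fit is not given. Hist2h4 had 2.08 to 3.24 CPM (median 2.63) in old and 2.75 to 4.08 CPM (median 3.46) in young controls (-0.39 ± 0.10, adjusted p = 0.00573), and Hist1h2ak 0.0310 to 0.250 CPM and 0.181 to 0.510 CPM (-1.01 ± 0.28, adjusted p = 0.00862). Hist1h4d (-0.27 ± 0.08), Hist1h1e (-0.36 ± 0.11), Hist1h4i (-0.71 ± 0.20), Hist1h4n (-0.90 ± 0.23) and Hist1h3i (-1.73 ± 0.47) were lower as well, and Hist1h2be was higher (0.35 ± 0.10, adjusted p = 0.015). The ranges of old and young controls overlapped for all of these. With transcripts as rows, the direction for Hist1h2be turned with the form: 0.53 ± 0.12 (adjusted p = 0.00293) for the longer forms and -0.49 ± 0.34 (adjusted p = 0.378) for the short form. In unloaded muscle 2 genes were higher and 2 lower, where 4.64% and 5.16% of all genes were (9.81% in either direction): Hist1h3b (3.1 ± 1.01) and Hist2h2be (0.39 ± 0.12) were higher and Hist1h4h (-0.30 ± 0.10) and Hist1h4i (-0.88 ± 0.28) lower in old muscle. None of these 4 was called without the 6 Alb libraries, or without young unloading replicate 2 or 3 or old unloading replicate 2; 1 gene was called without young unloading replicate 4 or old unloading replicate 3 or 6, and 2 without old unloading replicate 1 or 5.

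In reloaded muscle 2 genes were higher and 17 lower in old than in young mice, where 10% of all genes were higher and 9.67% lower (19.7% in either direction), and 43 of the 47 values were below 0 (median -0.72). Low copies could enter the 47 through the young reloaded libraries alone, which favours values below 0. Hist1h2ak was lower by 1.77 ± 0.32 on the log2 scale (adjusted p = 0.000361), Hist1h3i by 1.97 ± 0.55, Hist1h4j by 1.65 ± 0.41 and Hist1h3e by 1.57 ± 0.41. Hist1h3e had 0.322 to 0.393 CPM in old and 0.365 to 1.64 CPM in young reloaded libraries, so the ranges overlapped. Hist1h2bc was higher (0.56 ± 0.10, adjusted p = 0.000268), its 4 old libraries standing above all 4 young ones. With transcripts as rows its longer form gave 0.61 ± 0.10 (adjusted p = 0.000273), and its short form went the other way (-0.57 ± 0.30, adjusted p = 0.237). Hist2h2be was higher too (0.43 ± 0.14, adjusted p = 0.0299), but not without old reloading replicate 1 or 3 or young reloading replicate 4 (0.36, 0.38 and 0.41), without the 6 Alb libraries (0.65, adjusted p = 0.0534) or with only the 2 groups fitted (0.43, adjusted p = 0.098). The number of genes called was 19, and it was 7 without young reloading replicate 3, 11 without old reloading replicate 2, 8 without old reloading replicate 4, 3 without all 6 Alb libraries, and 3 when only the 2 groups were fitted. The share of all genes called in these fits is not given, so the lower counts cannot be read as particular to histone genes. Old reloading replicate 2, with 1740 CPM of Alb, had the lowest mitosis sum of its group (14.5 CPM, against 38.9, 47.2 and 25.6 CPM), and the part of liver RNA in the result was not tested.

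**Figure D5:**
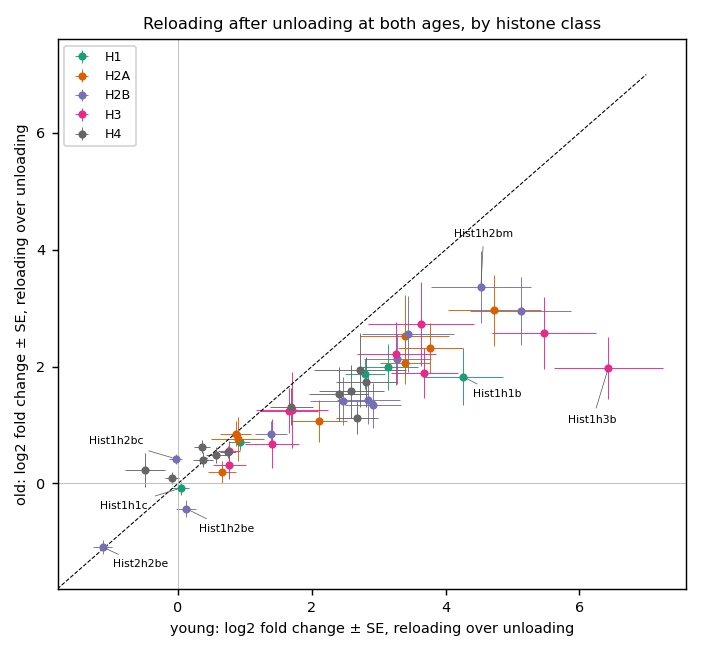
Log2 fold change ± SE with reloading after unloading in old mice (vertical axis) and young mice (horizontal axis) for 46 tested histone genes, coloured by class. Hist1h4m is left out because its unloaded libraries were at 0 reads after rounding. Most points lie below the dashed line of equal change, Hist2h2be lies low at both ages, and Hist1h3b lies farthest from the line.

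Whether the response itself differed with age was tested as the difference between the old and the young change. Here too, low copies that passed the read filter through the young reloaded libraries alone would favour larger young values. For reloading after unloading the value was larger in young mice for 40 of the 47 genes (median difference -0.86), but 1 gene was called, with 0.778% of all genes called. That was Hist1h3b (-4.45 ± 1.11, adjusted p = 0.0444), whose young unloaded libraries held 2 reads, and the call was lost without any 1 of the 4 young unloading libraries, young reloading replicate 3, old reloading replicate 4 or old unloading replicates 2, 3 and 5 (-4.11 to -4.89 over all libraries left out, with an adjusted p of up to 0.0938). Without young reloading replicate 1, young reloading replicate 4 or old reloading replicate 3 the number called was 2. For reloaded against control muscle Hist1h2bc was called (0.45 ± 0.12, adjusted p = 0.0274), with 4.82% of all genes called (2.32% higher and 2.49% lower), and was lost without old reloading replicate 1 (0.38, adjusted p = 0.0588) or young reloading replicate 2 (0.36, adjusted p = 0.0841); 2 genes were called without young reloading replicate 4. For unloading 0 genes were called by edgeR, as over all genes (0%), and 0 of the histone genes by DESeq2; 6 of the 47 had an unadjusted p under 0.05, where 9.89% of all genes did. The 3 with the smallest p were Hist1h3b (4.44 ± 1.10, adjusted p = 0.195), Hist1h1b (2.07 ± 0.74) and Hist1h4h (-0.32 ± 0.12).

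The 15 genes that were not tested had few reads. Hist1h1t, a linker histone of spermatocytes, had 6, 3 and 4 reads over the old reloaded, old unloaded and old control libraries and 7, 2 and 4 over the young ones. Hist1h2aa, an H2A gene of testis, had 1 read in all 36 libraries. Hist1h2ah had 33 reads in the young reloaded libraries and 0 in the young unloaded ones, at least 11.0-fold higher against a floor of 3 reads over the group. Hist1h2ae had 26 reads against 1 in the same groups, a ratio of 26.1 with an exact 95% interval of 4.29 to 1070, and Hist1h2ad 27 against 3 (9.03, interval 2.78 to 46.5). Hist2h2aa1 and Hist2h2aa2 are given at the same coordinates and held 7.7 and 1.3 reads in all. In the deposited coordinates Hist1h4m and Hist1h4n, which were both tested, overlap on the plus strand of chromosome 13, and they share reads. The RefSeq promoter of Hist1h4n lies apart from these coordinates, at chr13:21832148-21832447 on the minus strand. After rounding, Hist1h4m had 32 reads in old reloaded libraries, all in 2 of the 4, and 0 in old unloaded ones. Its deposited values were fractions, and its RPKM was above 0 in every old unloaded library (0.0026 to 0.0049). The bound of at least 16.5-fold does not cover how shared reads were assigned. Hist1h4n rose by 1.31 ± 0.32 in old and 1.70 ± 0.32 in young mice.

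Genes that act with these histones were taken as lists, to be read against the 27.8% of all genes that rose and 23.5% that fell with reloading in old mice, and the 26.4% and 21.5% in young mice. Of 25 genes of DNA replication, 12 rose and 2 fell with reloading in old mice (median 0.30), and 15 rose in young mice (median 0.58). Mcm6, a subunit of the replicative helicase, had 33.2 to 40.2 CPM in old reloaded and 6.18 to 10.2 CPM in old unloaded muscle and changed by 2.12 ± 0.14 in old and 2.00 ± 0.16 in young mice (adjusted p = 6.56e-14 and 4.55e-12). Mcm5 changed by 1.05 ± 0.21 and 1.94 ± 0.23. Of 10 mitosis genes, 9 rose in old mice (median 2.29) and 10 in young mice (median 4.76); Mki67, a marker of cycling cells, changed by 2.45 ± 0.45 and 4.96 ± 0.59. Young reloading replicate 3, the library with the highest histone levels, also had the highest mitosis sum of its group (104 CPM, against 52.2, 30.3 and 54.5 CPM in replicates 1, 2 and 4).

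The genes called for the machinery of histone mRNA lay in both directions. Of 22 tested genes for transcription and 3′ end processing of histone mRNA, 9 rose and 5 fell in old mice and 9 rose and 4 fell in young mice, with medians of 0.08 and 0.07, where 51.3% of all genes were called in either direction in old mice and 47.9% in young mice. Slbp, which binds the stem-loop, rose by 0.47 ± 0.10 in old mice (adjusted p = 0.000309) and 0.29 ± 0.11 in young mice (adjusted p = 0.036). Npat, the coactivator of histone gene transcription, was not called (-0.06 ± 0.06 and 0.02 ± 0.06), nor did its libraries separate, with 18.9 to 19.5 CPM in old reloaded and 18.9 to 21.7 CPM in old unloaded muscle. Eri1, a nuclease that trims the end of histone mRNA, rose by 0.43 ± 0.09 and 0.75 ± 0.10, and Sympk, a scaffold of 3′ end cleavage, fell (-0.71 ± 0.08 and -0.93 ± 0.09). Of 24 genes for histone chaperones and for modifying new histones, 6 rose and 7 fell in old mice and 8 rose and 4 fell in young mice, numbers close to those shares; Hat1, which acetylates new H4, rose by 0.59 ± 0.08 and 0.44 ± 0.09.

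Histone variants outside the 62 genes, taken as a list, moved in both directions. Of 10 tested, 5 rose and 3 fell with reloading in old mice (median 0.29) and 6 rose and 3 fell in young mice (median 0.29), against 27.8% and 23.5% of all genes in old and 26.4% and 21.5% in young mice. H2afz rose by 0.57 ± 0.09 in old and 0.53 ± 0.10 in young mice. H3f3b rose by 0.33 ± 0.09 and 0.35 ± 0.10 with reloading, and with unloading by 0.30 ± 0.07 and 0.30 ± 0.08. H3f3a, which encodes the same protein, fell (-0.47 ± 0.07 and -0.48 ± 0.08), and H2afv fell (-0.37 ± 0.08 and -0.58 ± 0.09). H1f0, a linker histone of resting cells, was not called (-0.11 ± 0.09 and -0.20 ± 0.10). H2afx and Cenpa, the centromeric H3, rose by 1.51 ± 0.23 and 1.60 ± 0.22 in young mice, as most of the replication-dependent genes did. Their values in old mice are not given here.

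Markers of other cell types moved with reloading as well. Of 10 macrophage markers, 8 rose in old mice (median 0.90) and 10 in young mice (median 1.02); they summed to 209 to 361 CPM in old reloaded against 144 to 210 CPM in old unloaded muscle and to 138 to 335 CPM in young reloaded against 107 to 155 CPM in young unloaded muscle, with no marker at 0. Of 7 endothelial and fibroblast markers, 3 rose and 1 fell in old mice and 5 rose and 2 fell in young mice, led by Col1a1 (3.12 ± 0.31 and 2.48 ± 0.35). Of 6 satellite cell and myoblast markers, 2 rose and 1 fell in old mice and 2 rose and 2 fell in young mice. Lymphocyte markers were low (1.32 to 1.88 CPM in sum in old reloaded and 0.846 to 1.54 CPM in old unloaded muscle) and 0 of the 4 tested were called by edgeR (1 had an unadjusted p under 0.05, Cd8a in young mice, 0.0411), while of 8 tested erythroid and neutrophil markers S100a8 and S100a9 fell in young mice (-2.89 ± 1.07 and -2.84 ± 1.06) and the others were not called at either age. Of 8 liver markers, 7 rose in old mice and 0 in young mice. They summed to 9.9, 2612, 20.5 and 237 CPM in old reloading replicates 1, 2, 3 and 4. Old unloaded libraries had 11.3 to 80.5 CPM, so only replicates 2 and 4, with high Alb, stood above them. The part of any of these cell types in the histone result was not tested.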

How the data were processed

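Soleus RNA of 36 mice was sequenced after ribosomal RNA depletion, with single-end reads of 50 bases per the labels' protocols, which name both a TruSeq RNA and a TruSeq Stranded Total RNA kit. Whether reads were counted by strand is not stated there. Tools listed by the submitters' processing notes, with no role given, are Partek 6.6, DESeq, TopHat and TopHat2 2.0.1, and the build is mm10. The deposited table holds estimated counts and RPKM per transcript (31668 rows), both made by the authors. Estimated counts were summed per gene symbol and rounded; 56 rows whose symbols had turned into dates were restored to 25 genes. Whole values within 0.01 reads made up 96.15% of the histone gene sums and 55.68% of all transcript values. Libraries totalled 32 to 37.9 M reads.

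edgeR 4.0.16 (R 4.3.3, limma 3.58.1) fitted 1 quasi-likelihood model with a mean for each of 6 groups, TMM scaling and filterByExpr, and Benjamini-Hochberg adjustment was over 15031 genes in each of 12 comparisons. DESeq2 1.42.0 was an alternative, beside other filters, fits on only the groups compared, a replicate block, the transcript with the highest mean, and libraries left out. The fit was tested on simulated data with changes set only in genes above a cut on mean CPM, which does not cover the low histone copies. Levels between genes use the deposited RPKM. Transcripts as rows were tested after the data were seen. Replicate numbers did not pair the mice. Text names up to 8 called genes per comparison by adjusted p, the 3 highest of each class by RPKM, genes that go against the rest, and testis histones; Hist1h2ba was not analysed here. The genes and lists were chosen with earlier results of these data known. P-values measure the spread between mice. Intervals and bounds cover counting error only.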

Additional observations from a re-analysis of the deposited data

Results flagged for a closer look

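Of 204 groups of 4 to 9 libraries checked for a library far from the others, 13 had one, where chance gives about 1 in 20. Young control replicate 3 stood high for Hist1h1a (2.35 CPM, the next 0.836), Hist1h1b (2.21 CPM), Hist1h2ab (0.566 CPM), Hist1h2bb (1.67 CPM), Hist1h3a (0.368 CPM) and the sum of the 52 less abundant genes (39.6 CPM, the next 30.4). The mitosis genes summed to 26.1 CPM in that library. Young control replicate 1 stood low for Hist1h4d (7.05 CPM), Hist1h4h (8.5 CPM) and the H4 sum (31.97 CPM), and old control replicate 8 for the H4 sum (27.6 CPM). Old control replicate 6 stood high for Hist1h1b (0.666 CPM). Old unloading replicate 3 had 0 CPM of Hist1h2af and old unloading replicate 2 had 0.843 CPM of Hist2h2ac, the lowest of their group.

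In the main fit the change differed between ages by its own test for 2 genes, but neither call held throughout. Hist1h3b rose less with reloading in old than in young mice (-4.45 ± 1.11, adjusted p = 0.0444 by edgeR). Hist1h2bc changed more in reloaded against control muscle in old mice (0.45 ± 0.12, adjusted p = 0.0274 by edgeR). Without the libraries above 20 CPM of Alb both calls were lost by edgeR (-3.68, adjusted p = 0.205 and 0.51, adjusted p = 0.0613). Both were also lost with only the groups compared fitted (-4.46, adjusted p = 0.0692 and 0.45, adjusted p = 0.056). With single libraries left out, the call of Hist1h3b held in 9 of 18 fits and that of Hist1h2bc in 24 of 26.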

How the results depend on the processing

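With at least 1 CPM on average required, which left 17 histone genes tested, the number called was 14 in old and 13 in young mice for reloading after unloading, 13 in both for reloaded against control muscle, 5 for unloading in young mice, 6 for age in reloaded, 2 in unloaded and 6 in control muscle, and 0 for the age difference in reloading. Fitted on only the groups compared, it was 24 for reloading and 22 for reloaded against control muscle in old mice, 5 for unloading in young mice, 3 for age in reloaded and 7 in control muscle, and 0 for both age differences with a call. Without the 6 Alb libraries it was 6 for unloading in young mice, 3 for age in reloaded and 0 in unloaded muscle, and 0 for both age differences. With no filter on low counts it was 6 for unloading in young mice, 1 for age in unloaded muscle and 0 for the age difference in reloading, and DESeq2 called 2 for that difference. The transcript with the highest mean gave 6 for unloading in young mice and 2 for age in unloaded muscle. The causes were not tested, apart from the fewer genes or libraries of an alternative. The share of all genes called in each alternative fit, or with a library left out, is not given in any section. Whether the histone counts shifted more than that share was not tested.

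Leaving out each library in turn gave 38 to 42 genes in old and 36 to 41 in young mice for reloading, 32 to 40 and 39 to 42 for reloaded against control muscle, 4 to 5 and 4 to 13 for unloading, 7 to 24 for age in reloaded, 0 to 3 in unloaded and 9 to 15 in control muscle, and 0 to 2, 0 to 2 and 0 to 0 for the age differences in reloading, in reloaded against control muscle and in unloading. The replicate block gave 2 genes for age in unloaded muscle and moved no other count by over 1.5 times (40 for reloading at each age); same-numbered mice had a median correlation of 0.00911 over 69 pairs, of which 13 were over 0.1, so the numbers do not pair mice. For the short form alone the direction reversed for Hist1h2bc with age in reloaded muscle (-0.57) and for Hist1h2be with age in controls (-0.49), reloading in old mice (1.68) and unloading in old (-0.26) and young mice (-0.53). For single genes 426 values kept their call, 51 lost it and 5 reversed, and with a library left out 873 kept it and 78 lost it. Depth limits the low copies: with 0 to 3 reads in a group, only bounds or wide intervals can be given.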
